A study of Mus musculus with 8 samples.

Results

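A set of 10 genes rich in IgG peaks, Ntm, Reln, Robo2, Col14a1, Pam, Epha7, Slco3a1, Rspo3, Cacnb2 and Bmp5, was examined in an RNA immunoprecipitation sequencing (RIP-seq) study of mouse liver. The genes were chosen by their measured peak numbers, 20 or more in the IgG control and few or none with anti-NONO, so their numbers of peaks per list are a description of that choice and carry no test. They are 10 of 11669 genes with a peak in any of the 4 lists, out of 32106 genes of the annotation (GENCODE vM21, mm10). They are 10 of the 23 genes, or 0.197% of the 11669, that had 20 or more IgG peaks and no more than the 13 NONO peaks of Reln, the member with most.

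NONO is a nuclear RNA-binding protein of paraspeckles, and the study sequenced RNA that came down with it from nuclei of the liver. All mice were C57BL/6, wild type and 14 weeks old. The anti-NONO groups were fasted livers at zeitgeber time (ZT) 10, livers 2 h after re-feeding at ZT14, and livers 10 h after re-feeding at ZT22, so that feeding state and time of day moved together. The IgG group, an immunoprecipitate with no specific target, has no feeding state in its labels. Lights were on for 12 h and off for 12 h, and food had been given in the dark phase alone for a week. Each of the 8 libraries (4 immunoprecipitates and an input for each) was a pool of 2 experiments, with no replicate, so no difference below has an error from replicates.

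Several of the genes, though not all, belong to families best known from the nervous system or from matrix-producing cells. Hepatic stellate cells are the vitamin A-storing pericytes of the liver sinusoid. They produce extracellular matrix, and reelin, the product of Reln, is among their known products in liver. Axon guidance receptors such as Robo2 and Epha7 bind Slit and ephrin ligands on neighbouring cells or in matrix. Rspo3 and Bmp5 encode secreted signals of the Wnt and bone morphogenetic protein pathways. In bulk nuclei, fewer nuclei of a type and less RNA per nucleus cannot be told apart.

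A peak is a 500 bp window, or several joined within 1000 bp, in which the immunoprecipitate reached 2-fold over its own input and a threshold number of sequenced tags, as the authors' caller set it. That threshold was 11 tags in the NONO lists and 8 tags in the IgG list, which comes to 5.23 (fasted), 5.21 (2 h), 6.02 (10 h) and 4.21 (IgG) normalised tags, meaning tags scaled to a library of 10000000. Signal below a threshold is not seen in these lists. The lists held 38209 (fasted), 61737 (2 h), 50609 (10 h) and 55946 (IgG) peaks from 21032764, 21091048, 18275033 and 18995778 tags. The median fold over input of a peak was 2.82, 3.13, 2.84 and 4.16 in the same order. The Rn7sk gene, source of the nuclear 7SK RNA, had a single peak that took 37.5% of the IgG library and had no NONO counterpart. Neat1, the RNA scaffold of paraspeckles, had 1, 1 and 4 NONO peaks and 2 IgG peaks.

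Together the 10 genes carried 1 peak in the fasted list, 4 in the 2 h list, 11 in the 10 h list and 461 in the IgG list. The peaks covered 501 bp (fasted), 2004 bp (2 h), 5723 bp (10 h) and 419872 bp (IgG). Their normalised tags summed to 8.08 (fasted), 20.9 (2 h), 84.2 (10 h) and 6521 (IgG). Of the 10 genes, 1 had a fasted peak, 1 had a 2 h peak, 3 had a 10 h peak and 10 had an IgG peak. Of all 32106 genes, 22.1% (fasted), 27.2% (2 h), 26.0% (10 h) and 27.6% (IgG) had a peak. Genes with 20 or more IgG peaks were 629 of the 11669 with any peak, or 5.39%, and those that in addition lacked any NONO peak were 10, or 0.0857%. The members among those 10 number 7 (Robo2, Col14a1, Pam, Epha7, Slco3a1, Rspo3 and Cacnb2).

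**Figure D1:**
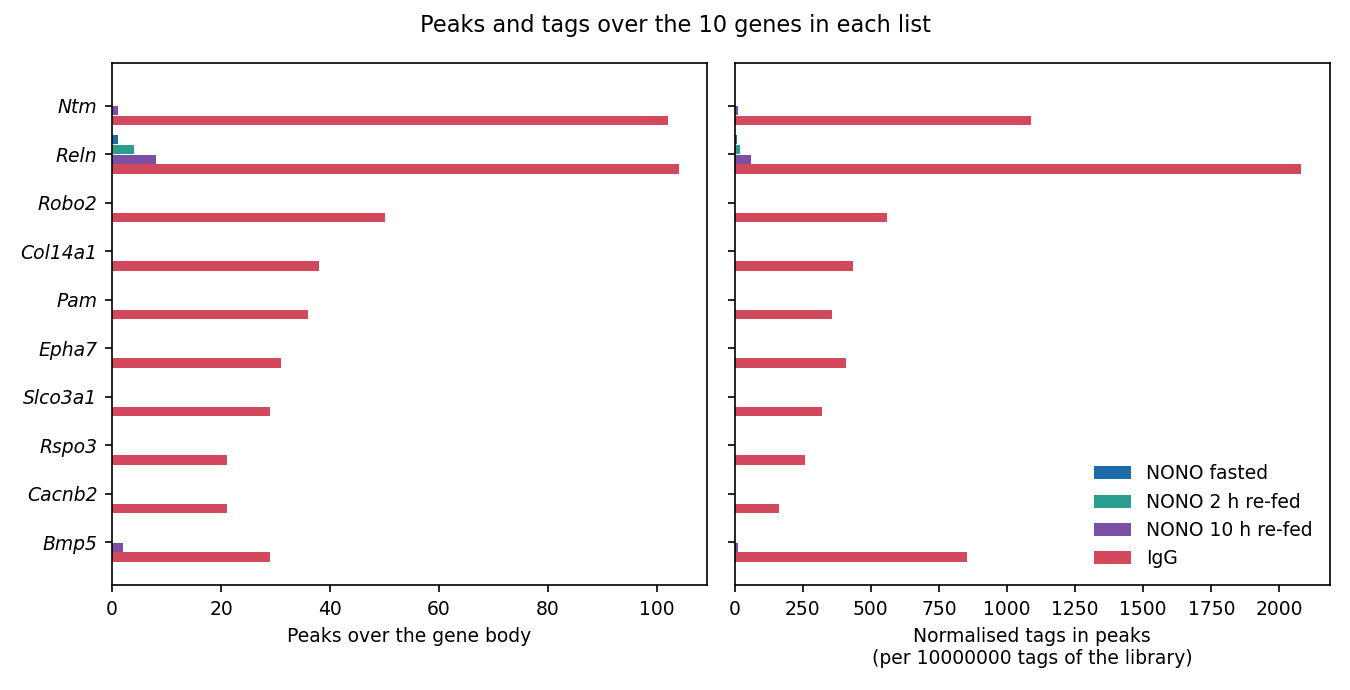
Number of peaks (left) and summed normalised tags (scaled to a library of 10000000 tags, right) over each of the 10 gene bodies, with a bar for each of the 4 lists and 1 pooled library behind each bar. IgG bars reach 104 peaks over Reln and 102 over Ntm, and NONO bars are absent over 7 of the genes.

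Other IgG-rich genes had NONO peaks in similar number to their IgG peaks. The 629 genes had a median of 20 (fasted), 31 (2 h), 24 (10 h) and 29 (IgG) peaks. Their NONO peaks, summed over the 3 times, had a median of 75 with quartiles of 54 and 105. Reln ranked 15th and Ntm 17th of all genes by number of IgG peaks, whereas Rspo3 and Cacnb2, with 21 each, lay just inside the threshold of 20.

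**Figure D2:**
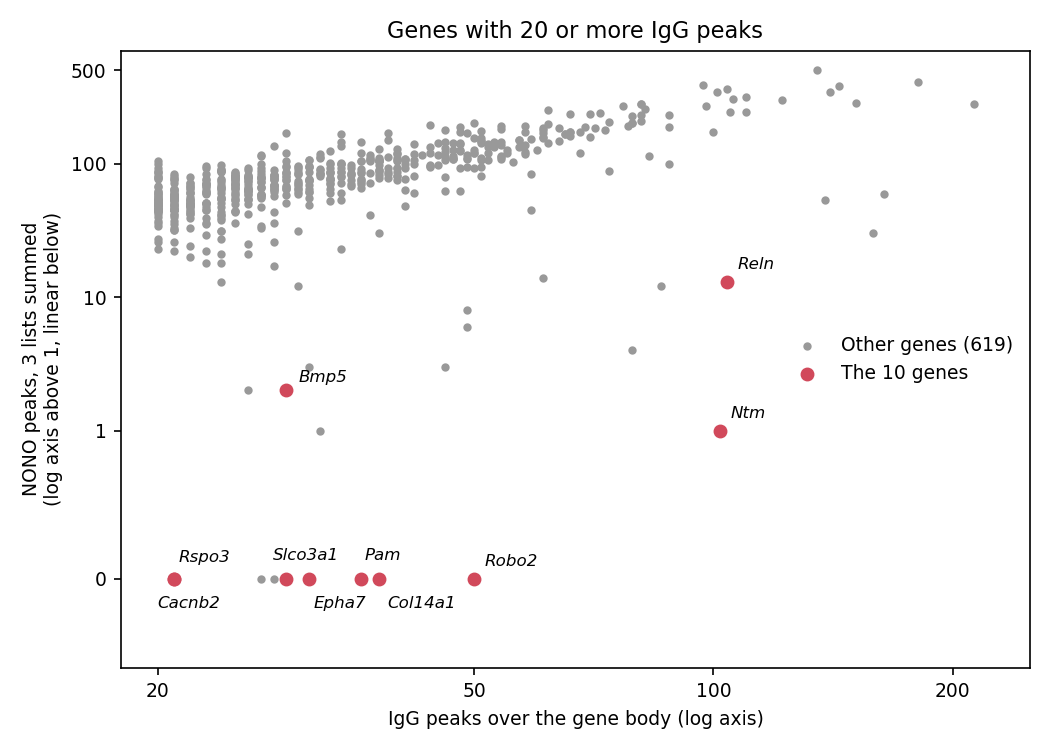
Each point is 1 of the 629 genes with 20 or more IgG peaks, placed by its IgG peaks (log axis) and its NONO peaks summed over 3 lists (log axis above 1, linear below). The 10 genes lie at 0 to 13 NONO peaks, below the median of 75.

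Sequences are shown first at 2 annotated starts of Cacnb2 that lie on either side of most of its IgG peaks. Cacnb2 encodes an auxiliary β subunit of voltage-gated calcium channels and has more than 1 annotated start. Its IgG peaks fell almost entirely between the upstream start (14604306) and an internal start (14824092) on the plus strand of chromosome 2. The 250 bases before each of these starts are given below from RefSeq GRCm38.p6, 5′ to 3′, with CG pairs in capitals. They lie at chr2:14604056-14604305 and chr2:14823842-14824091.
Cacnb2 upstream start: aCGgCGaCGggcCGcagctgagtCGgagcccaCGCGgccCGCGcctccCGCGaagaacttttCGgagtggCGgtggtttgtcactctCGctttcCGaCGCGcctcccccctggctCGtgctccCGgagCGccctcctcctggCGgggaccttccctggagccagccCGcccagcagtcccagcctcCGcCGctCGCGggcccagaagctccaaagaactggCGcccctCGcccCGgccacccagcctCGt
Cacnb2 internal start: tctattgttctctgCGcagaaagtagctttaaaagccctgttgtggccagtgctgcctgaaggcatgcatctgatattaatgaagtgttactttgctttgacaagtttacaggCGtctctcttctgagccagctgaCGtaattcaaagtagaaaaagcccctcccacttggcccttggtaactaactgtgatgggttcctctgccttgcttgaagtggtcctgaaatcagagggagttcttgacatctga
The upstream window held 30 CG pairs and the internal window 3, against a median of 6 (quartiles 2 and 16) over 32851 promoter windows. Of the 21 IgG peaks, 20 lay before the internal start and 1 after it. The 20 ran from 15.2 to 168.5 kb from the gene start, short of the internal start at 221.0 kb. The remaining peak lay at 282.8 kb. Further internal starts are annotated at 270.6, 271.3 and 357.7 kb, so the internal start shown does not bound the signal. Few of these peaks were strong: with 11 tags asked of IgG as of NONO, 2 were left, and in lists of equal length 6 were left, all before the internal start. RefSeq gave 13 promoter windows of 300 bp for 7 of the members, and no peak of any list overlapped them.

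Most member signal lay in introns. Of the 461 IgG peaks, 15 overlapped an exon and 7 had their midpoint in an exon, so 98.5% had an intronic midpoint. The intron share of these long bodies and the intronic share of all IgG peaks were not computed. The 98.5% is therefore a description without a background. Of those 15, 10 lay over exons without coding sequence, from retained-intron or other non-coding transcripts of Reln, Robo2, Pam and Epha7. The other 5 overlapped a coding exon, and all 5 exons are shown because they are the coding parts of these peaks. The sequences come from the GENCODE vM21 transcripts, in the direction of transcription, with bases covered by the peak in capitals.
Reln exon 17 of 65, chr5:22044964-22045030, minus strand: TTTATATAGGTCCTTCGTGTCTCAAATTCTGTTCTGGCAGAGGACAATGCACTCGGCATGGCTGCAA
Col14a1 exon 38 of 48, chr15:55471621-55471716, plus strand: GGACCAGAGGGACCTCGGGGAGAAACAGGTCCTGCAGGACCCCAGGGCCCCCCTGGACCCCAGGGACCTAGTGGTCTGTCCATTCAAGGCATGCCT
Col14a1 exon 42 of 48, chr15:55488466-55488537, plus strand: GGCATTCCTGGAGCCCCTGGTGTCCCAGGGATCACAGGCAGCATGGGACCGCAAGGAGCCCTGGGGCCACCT
Col14a1 exon 44 of 48, chr15:55498416-55498482, plus strand: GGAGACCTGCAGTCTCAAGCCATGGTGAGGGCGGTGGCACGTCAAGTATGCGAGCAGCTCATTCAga
Slco3a1 exon 7 of 10, chr7:74318459-74318597, minus strand: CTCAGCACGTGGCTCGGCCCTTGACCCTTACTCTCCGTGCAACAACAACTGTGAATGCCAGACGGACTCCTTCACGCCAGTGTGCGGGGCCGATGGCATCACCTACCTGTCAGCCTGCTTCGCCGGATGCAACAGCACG
The Reln exon of 67 bases lay inside a peak of 3676 bp with 78.4 normalised IgG tags and a fold of 2.09, so it was a small fraction of the covered interval. Each of the first 2 Col14a1 exons, of 96 and 72 bases, and the Slco3a1 exon, of 139 bases, was covered whole. The peaks over them held 18.4, 6.84 and 5.79 normalised IgG tags. The other Col14a1 exon, number 44, had 65 of its 67 bases covered.

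Reln encodes reelin, a large secreted matrix glycoprotein that guides neuron positioning in the brain. Its body (ENSMUSG00000042453, chr5:21884454-22344702, minus strand) had 1 peak fasted, 4 at 2 h and 8 at 10 h, against 104 in IgG. Normalised tags in these peaks were 8.08 (fasted), 20.9 (2 h), 59.7 (10 h) and 2081 (IgG). The NONO values were low at all 3 times, and the IgG peaks covered 23.8% of the body. The strongest IgG peak lay 3.03 kb from the start, with 92.7 normalised tags and a fold of 2.41. Over all 104 peaks the IgG tags were 3.23-fold over input, below the other members except Bmp5.

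Ntm encodes neurotrimin, a membrane-anchored adhesion protein of the IgLON family. It is the longest member, at 968.4 kb (ENSMUSG00000059974, chr9:28994750-29963141, minus strand). Ntm had 0, 0 and 1 NONO peaks (fasted, 2 h and 10 h) and 102 IgG peaks, with 10.9 normalised tags in the 10 h peak and 1088 in the IgG peaks. The IgG peaks covered 8.53% of the body. No IgG peak lay between 719.3 and 870.3 kb from the start, and 98.1 kb followed the last peak.

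Robo2 encodes a receptor for Slit ligands in axon guidance. Over its 520.0 kb body (ENSMUSG00000052516, chr16:73891839-74411825, minus strand) there was no NONO peak, and there were 50 IgG peaks with 558.8 normalised tags. The first IgG peak lay 34.3 kb from the start and the last 314.8 kb from it, so the final 205.2 kb of the body held none. RefSeq places another start farther upstream, and the 1035 kb between the annotated start and that start held no peak in any list. Epha7, an ephrin receptor tyrosine kinase (ENSMUSG00000028289, chr4:28813131-28967499, plus strand), had 31 IgG peaks with 409.5 normalised tags over 20.7% of its body, and no NONO peak.

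Col14a1 encodes the α1 chain of collagen XIV, a fibril-associated collagen. Its body (ENSMUSG00000022371, chr15:55307750-55520803, plus strand) held no NONO peak and 38 IgG peaks with 435.3 normalised tags. Pam encodes peptidylglycine α-amidating monooxygenase, which amidates peptide hormones. It held no NONO peak and 36 IgG peaks with 355.8 normalised tags (ENSMUSG00000026335, chr1:97795114-98095646, minus strand). Slco3a1, an organic anion transporter, had none and 29 with 321.0 normalised tags (ENSMUSG00000025790, chr7:74275419-74554780, minus strand). IgG peaks covered 15.2% of the Col14a1 body, 9.06% of Pam and 8.54% of Slco3a1.

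Among the secreted signals, Bmp5 carried the densest IgG signal per length. Bmp5 (ENSMUSG00000032179, chr9:75775364-75900310, plus strand), a ligand of bone morphogenetic protein receptors, had 0, 0 and 2 NONO peaks with 13.7 normalised tags at 10 h. Its 29 IgG peaks held 851.9 normalised tags, which is 6.82 per kb of body, and covered 32.1% of it. At 4-fold over input 8 of the 29 were left. An IgG peak of 4827 bp held 130.6 normalised tags, more than any other member peak. Rspo3 encodes R-spondin 3, an enhancer of Wnt signalling, and had no NONO peak. Its 21 IgG peaks over 83.5 kb (ENSMUSG00000019880, chr10:29452416-29535867, minus strand) held 256.4 normalised tags, or 3.07 per kb. Cacnb2 (ENSMUSG00000057914, chr2:14603088-14987908, plus strand) stood at the other end, with 0.423 normalised IgG tags per kb in 21 peaks (2 with 11 tags asked of IgG) and no NONO peak.

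Fold over input differed among the members in the order opposite to tag density at its ends. The summed IgG fold was 2.94 for Bmp5 and 3.23 for Reln, from 4.03 to 4.54 for the other 7 besides Cacnb2, and 6.90 for Cacnb2. The IgG input under these peaks, in tags per 10000000, was 644.8 for Reln, 289.5 for Bmp5 and 23.6 for Cacnb2. Over the 461 peaks the median IgG fold was 4.51 (2.08 to 35.35), near the 4.16 of the whole IgG list. In 22 of the 461, or 4.77%, the authors' input was at its minimum entry, against 3.86% of all IgG peaks, and a fold there rests on no input tag. Median peak width was 660 bp, and 186 peaks had the minimum width of 500 bp. Of the 461 peaks, 371 held at least 6.02 normalised tags, the highest NONO threshold, and 242 had 11 or more tags in their best window.

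Pooled over the members, IgG peaks became fewer from the start toward the end of the bodies, and 3 members carried most of that decline. Dividing each body into 5 equal parts from its start, the members' IgG peaks numbered 128, 106, 101, 75 and 51. These are 27.8%, 23.0%, 21.9%, 16.3% and 11.1% of the 461. In 604 other protein-coding genes with 20 or more IgG peaks the shares were 21.0%, 20.5%, 21.2%, 20.4% and 16.9%. Cacnb2 (14, 4, 2, 1 and 0), Robo2 (16, 23, 10, 1 and 0) and Ntm (33, 22, 23, 23 and 1) had 0, 0 and 1 peaks in the last part. Without them, a split chosen after the data were seen, the other 7 members had 65, 57, 66, 50 and 50. Col14a1 (10, 6, 6, 6 and 10), Bmp5 (6, 5, 5, 5 and 8), Reln (27, 24, 22, 15 and 16) and Slco3a1 (3, 15, 9, 0 and 2) had more peaks in the last part than in the one before. Pam (8, 2, 8, 12 and 6) and Rspo3 (4, 2, 6, 6 and 3) had most of their peaks past the second part, and so did Epha7 (7, 3, 10, 6 and 5). The peaks of a gene share 1 transcript and 1 library, so they are not replicates.

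**Figure D3:**
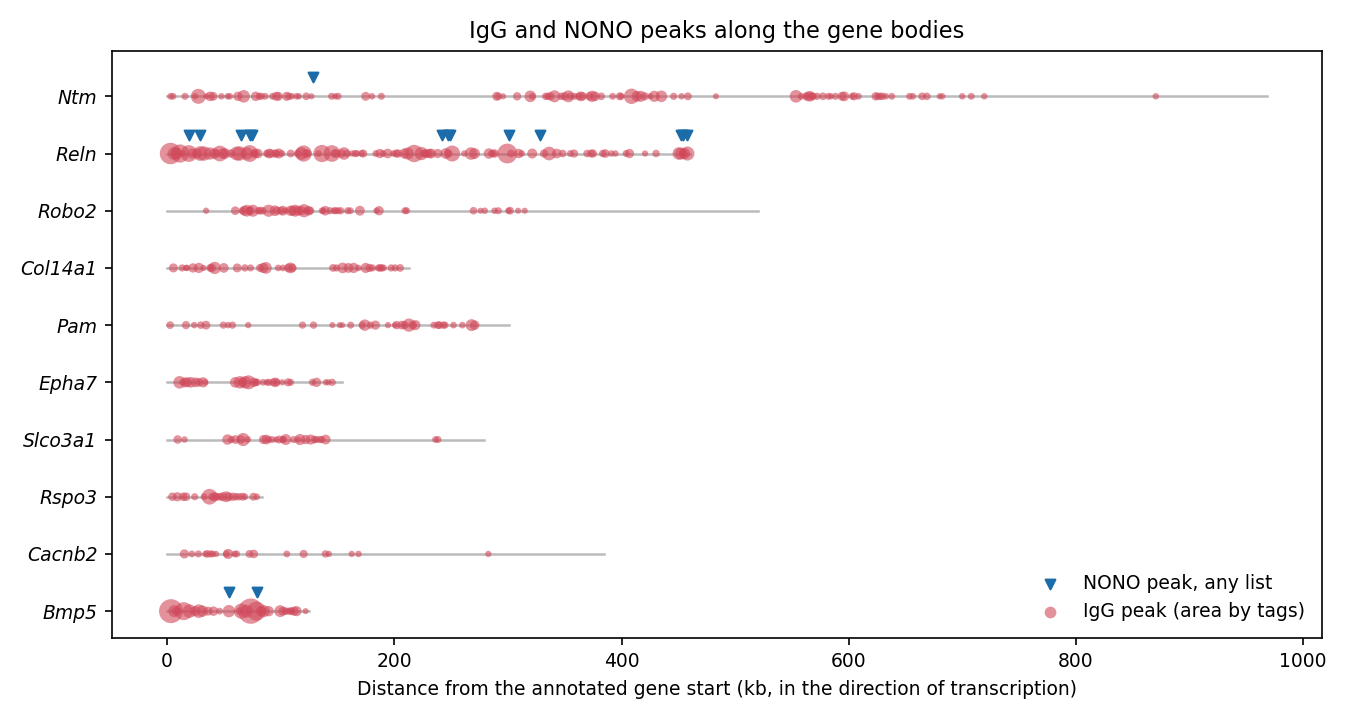
Peaks along the 10 gene bodies against distance from the annotated start in kb, with the area of each IgG point set by its normalised tags and NONO peaks of any list as triangles. IgG points stop at 314.8 kb in Robo2 and at 282.8 kb in Cacnb2, and the 16 NONO triangles sit on Reln, Bmp5 and Ntm.

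Few IgG peaks lay just outside the annotated genes. In the 50 kb before the starts the lists held 0 (fasted), 0 (2 h), 2 (10 h) and 1 (IgG) peaks over all 10 genes, and 9 members had no IgG peak there. The exception was Col14a1, whose window reaches Deptor. In the 50 kb past the ends there were 16 (fasted), 12 (2 h), 10 (10 h) and 10 (IgG) peaks, of which 10, 10, 7 and 5 followed Pam, where Ppip5k2 and Gin1 lie. NONO peaks were thus called beside Pam and not over it. Several members overlap antisense or intronic transcripts, and strand was not kept in the lists. Leaving out peaks over another gene left 444 of the 461 IgG peaks.

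At 10 h the NONO peaks over Reln numbered 8, against 1 fasted and 4 at 2 h, and with 1 library per time these counts have no error. All 16 NONO peaks over members were narrow, with 15 of 500 bp and 1 of 712 bp. Of these 16, 8 (50%, exact 95% interval 24.6% to 75.4%) met an IgG peak, and 8 of the 461 IgG peaks (1.74%, interval 0.752% to 3.39%) met a NONO peak. Among all 55946 IgG peaks 61.5% (interval 61.1% to 61.9%) met a NONO peak. The rule that picked the members fixes most of that difference. The intervals cover counting error only and take each peak as independent, which peaks of the same gene are not. Of the 8 shared positions, 6 were in Reln and 2 in Bmp5.

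At all 8 shared positions input tag density was higher behind the IgG peak than behind the NONO peak. In Reln the NONO inputs ran from 0.498 to 4.21 normalised tags per kb, and the IgG input ran from 7.37 to 13.6. In Bmp5 it was 3.39 and 2.52 in the NONO inputs, against 3.55 and 6.24 in the IgG input. The IgG to NONO ratio of input density ranged from 1.05 to 20.6 over the 8. The 20.6 and the 0.498 come from a Reln peak at 2 h whose NONO input entry stands for no tag. The next ratio, 10.2, rests on 1.0 NONO input tag. The NONO peaks here were 500 bp wide and the IgG peaks up to 3676 bp, so the densities are not of the same bases. Across all overlapping peak pairs the median of this input ratio was 0.350 (fasted, 13344 pairs), 0.445 (2 h, 27678 pairs) and 0.395 (10 h, 21009 pairs). The members' positions lay on the other side of 1. The members were picked for many IgG and few NONO peaks, so this contrast is not independent of that choice. Of the 8 positions, 6 were in the single gene Reln. The inputs come from different pools. Whether the pools held different amounts of these transcripts was not tested.

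The label of the gene set was checked on marker lists. Of 30 stellate cell markers, 6 (fasted), 9 (2 h), 7 (10 h) and 23 (IgG) had a peak, and peaks numbered 42, 82, 90 and 398. Of the 30, 14 had IgG peaks and no NONO peak in any list, and 18 had more IgG peaks than in any NONO list. Over the 11669 genes with a peak those shares were 9.91% and 25.2%. Of 16 hepatocyte markers, 2 had IgG peaks and no NONO peak, and 9 had more IgG peaks than in any NONO list. A lean to IgG by the second measure was thus not particular to stellate markers. The IgG peaks of the list were unevenly spread over its genes. Without the 2 genes with most IgG peaks the list had 31 (fasted), 57 (2 h), 43 (10 h) and 101 (IgG) peaks.

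Of the 30 markers, 18 leaned to the IgG list, some by a single peak. Col1a2, Ecm1, Gdf2, Hand2 and Sod3 had 1 IgG peak each and no NONO peak, all but Hand2 with 5.79 or fewer normalised tags. With 11 tags asked of IgG as of NONO, 15 of the 30 had an IgG peak, in place of 23. The examples that follow, with more peaks, were also chosen after their values were seen. Lrat, the retinol esterifying enzyme of stellate cells, had no NONO peak and 3 IgG peaks. Pdgfrb, the receptor for platelet-derived growth factor, had none and 4, and Rgs5 none and 3. Vipr1 had none and 8, and Lama1 none and 9. Dcn, the proteoglycan decorin, had 4, 3 and 2 NONO peaks and 11 IgG peaks. Going the other way, 4 markers had fewer IgG peaks than in their highest NONO list. Hgf, the hepatocyte growth factor gene, had 4, 17 and 14 NONO peaks and 13 IgG peaks. Tmem56 had 16, 18 and 12 against 13, Ptch1, the Hedgehog receptor gene, had 7, 16 and 13 against 12, and Angptl6 had 0, 1 and 2 against 1. Adamtsl2, with 1 peak at 2 h and 1 in IgG, leaned to neither. No peak in any list lay over 7 stellate markers (Des, Nes, Cdh11, Cygb, Col1a1, Ngfr and Gfap).

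General neuronal markers did not share the pattern, so the working name of neuronal-type genes is not borne out by them. Of 18 neuron and Schwann cell markers, 0, 0 and 3 had a NONO peak and 4 had an IgG peak. Rbfox3 and Syt1 had 1 peak each at 10 h and in IgG, and Tubb3 had 1 in IgG. Endothelial markers (16 genes) had 44 (fasted), 81 (2 h), 80 (10 h) and 62 (IgG) peaks, led by Stab2 with 14, 25, 22 and 22. Hepatocyte markers (16 genes) had 23, 43, 40 and 63 peaks in that order of lists, and 9 of the 16 had more IgG peaks than in any NONO list. Cholangiocyte markers had 4, 11, 18 and 12. Kupffer cell markers had 2, 4, 6 and 4, lymphocyte and erythroid markers 5, 4, 10 and 7, and portal fibroblast and smooth muscle markers 0, 1, 3 and 2. Whether nuclei of different cell types made up different shares of the pools was not tested.

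**Figure D4:**
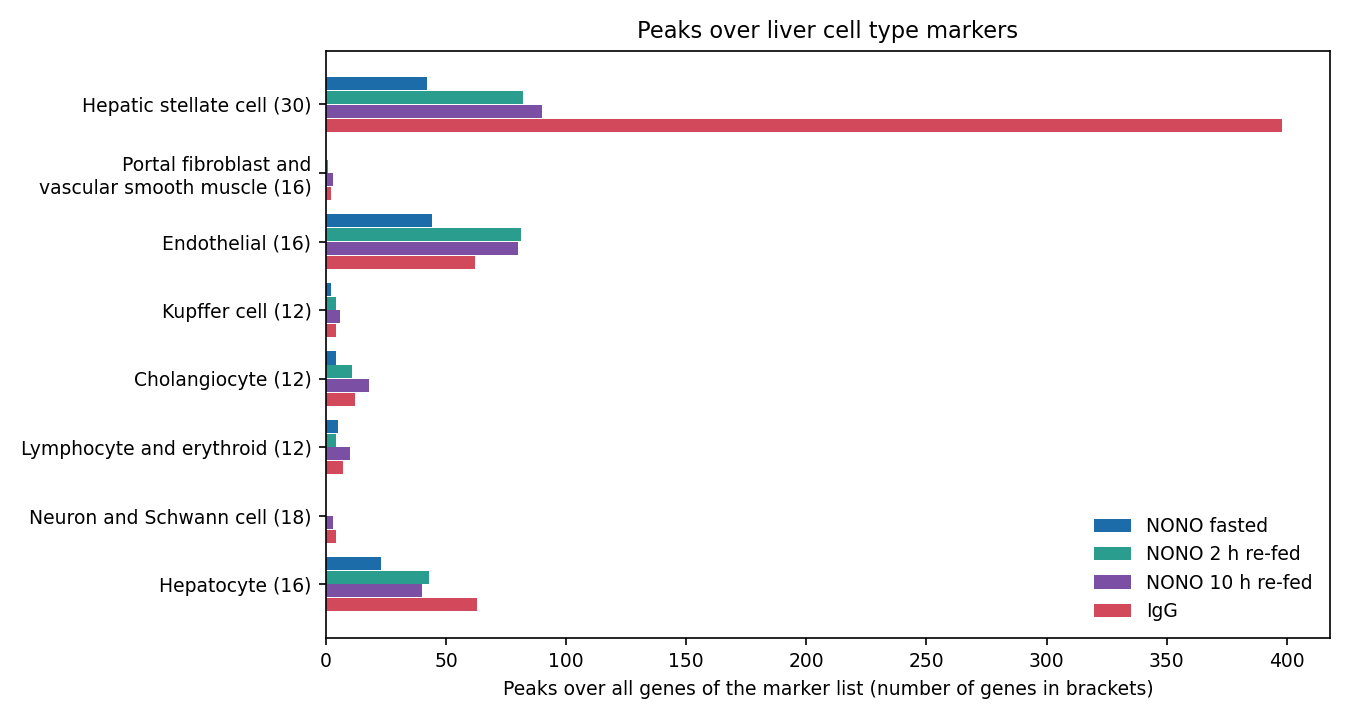
Peaks in each of the 4 lists over the genes of each liver cell type marker list, none of them among the 10 genes, with the number of genes in brackets. Stellate markers had 398 IgG peaks, against 90 or fewer in each NONO list, and neuron and Schwann cell markers had 4 or fewer in every list.

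Some relatives of the members in the same families had peaks with NONO too, and many had no peak in any list. Beside Robo2, the 9 other genes of the Slit and Robo pathway had 27 (fasted), 63 (2 h), 80 (10 h) and 49 (IgG) peaks. Of these, Srgap2 had 20, 40, 32 and 33, and Robo1, the paralogue of Robo2, had 7, 22, 44 and 16. Beside Epha7, 21 Eph receptors and ephrins had 30, 67, 44 and 64, of which the ligand gene Efna5 had 26, 60, 33 and 55. Beside Reln, 6 reelin pathway genes had 9, 19, 13 and 11, and Fyn, a kinase downstream of reelin, had 2, 9, 4 and 1. The reelin adaptor gene Dab1 had no peak, and neither had Lrp8 or Vldlr. No peak in any list lay over 5 of the 9, 16 of the 21 and 3 of the 6 genes. Of all 32106 genes, 11669 had a peak in any list.

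Some partners of the secreted members also had NONO peaks at every time. The 8 other genes for R-spondins, their receptors and their regulators had 51 (fasted), 70 (2 h), 57 (10 h) and 54 (IgG) peaks, with Lgr4, an R-spondin receptor, at 16, 27, 18 and 20. For Bmp5, 19 bone morphogenetic protein ligand, receptor and Smad genes had 72, 120, 94 and 92, with the receptor gene Bmpr1a at 5, 22, 18 and 17. Beside Slco3a1, 13 Slco transporters had 15, 38, 38 and 39. No peak in any list lay over 4 of the 8, 8 of the 19 and 8 of the 13 genes. Genes without a peak included Rspo1, Rspo2, Rspo4, Bmp2, Bmp3, Bmp4, Bmp7, Bmp8a and Bmp8b.

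Other families had few peaks outside the member. The 17 other calcium channel genes had 1, 5, 4 and 10 peaks, and Cacna1d, a pore-forming subunit, had 1, 2, 2 and 4 of them. Of the 4 other IgLON genes only Negr1 had a peak, 1 in IgG, against 102 over Ntm. The 8 other fibril-associated collagens had 1, 0, 0 and 2, all over Col20a1. No peak lay over the 9 other genes of neuropeptide and prohormone processing. In any list, 11 of the 17 calcium channel genes, 3 of the 4 IgLON genes and 7 of the 8 collagens had no peak. Only 11669 of all 32106 genes had a peak in any list, so most genes of the annotation had none.

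A further 8 genes resembled the members most by the fewest NONO peaks among those with 20 or more IgG peaks. Lrrc4c had 28 IgG peaks, 1700025G04Rik 27 and AC157784.1 21, each without a NONO peak, and AC157784.1 lies inside Ccbe1. Sntg1 had 1 NONO peak summed over the times and 32 in IgG, Pde1a 2 and 26, Ccbe1 3 and 46, and Lhfp 3 and 31. Zfpm2, a GATA cofactor, had 4 and 79. With 15 to 19 IgG peaks, just under the threshold, Tgfbr3, encoding the TGF-β co-receptor betaglycan, had no NONO peak and 18 IgG peaks. Pde8b had 0 and 17, Nkain2 0 and 15, Zfp804b 0 and 15 and Abcc9 1 and 19. Members just inside it were Rspo3 and Cacnb2.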

How the data were processed

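The 4 deposited peak lists were used, one for each immunoprecipitate. Per the submitters' processing notes FastQC 0.11.2, STAR 2.4.0k and HOMER were used with mm10. Per the file headers, HOMER joined 500 bp windows within 1000 bp, on both strands, at 2-fold over input. Per the labels' protocols nuclei came through a sucrose cushion and libraries were stranded and depleted of ribosomal RNA. The deposited signal is the authors' tag count normalised to 10000000 tags, and input tags were rescaled to the same depth from the totals in the headers. The deposited fold is the authors' ratio to input, and the deposited score, HOMER's own per the file headers, ranked peaks and was read as the tags of the best window, since its minimum equals the tag threshold. Input values of 0.5 tags or less stand for no tag. Deposited counts of tags were read as the authors scaled them.

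Peaks were laid on 21951 protein-coding and 10155 non-coding GENCODE vM21 genes by a 1 bp overlap with Python 3.11.15, pandas 2.3.3, numpy 2.4.6 and scipy 1.17.1. The 10 genes and the 18 marker and family lists were chosen with earlier results of these data known. Named genes were the members, 8 similar genes, 5 just under the threshold, and up to 4 per list by IgG peaks, of which not all are printed. Lama1, Pdgfrb, Lrat, Rgs5, Vipr1, Dcn, Ptch1, Angptl6, Adamtsl2 and the genes at 0 were named after their values were seen. So were Col1a2, Ecm1, Gdf2, Hand2 and Sod3. Overlap counting was checked on simulated peaks. Base composition of the peaks was not analysed here.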

Additional observations from a re-analysis of the deposited data

How the results depend on the processing

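No paired analysis was possible because there are no replicates. Of 92 values recomputed, 45 kept and 47 moved. The members had more IgG than NONO peaks in every setting tried, an outcome that the rule picking them from these same lists largely fixes. At 4-fold over input the members had 300 IgG peaks, 97.4 NONO and 2793 IgG normalised tags, and 7226 bp (NONO) and 218282 bp (IgG) covered. With IgG at the 11 tags asked of NONO, they had 242 IgG peaks with 4516 normalised tags over 252491 bp. In lists of equal length (38209 peaks by score) they had 1 NONO and 274 IgG peaks, 8.08 NONO and 5045 IgG tags, and 501 bp and 291457 bp, at a median IgG fold of 3.90. Members with 20 or more IgG peaks were then 5 under either of the last 2 settings, so the choice of members depends on these thresholds. Genes meeting the rule were 48 (4-fold), 11 (11 tags) and 14 (equal length), in place of 23. Stellate markers with an IgG peak were 15 at 11 tags and 15 at equal length. IgG peaks met by a NONO peak were 0.0% at 4-fold and 0.217% when at least 50% of the IgG peak had to be covered. Over single members IgG peaks numbered 8 (Bmp5) to 84 (Ntm) at 4-fold, 2 (Cacnb2) to 69 (Reln) at 11 tags, and 6 (Cacnb2) to 76 (Reln) at equal length. Without Ntm, Robo2 and Cacnb2, left out after the data were seen, 22.6% of IgG peaks lay in the part nearest the start, in place of 27.8%. Per tags outside the Rn7sk peak the members' IgG tags were 10430. Thresholds of 8 to 11 tags per window limit what a missing NONO peak can show.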
